A study of Mus musculus with 12 samples.

Results

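The chromatin around Sox2 and its distal control region was followed through 24 accessible sites among the 91354 of the BGI peak set, and 24 among the 87027 of the Illumina peak set. They were taken by position, as every counted peak inside the interval chr3:34620000-34790000 of GRCm38, which holds the single-exon gene Sox2 (chr3:34650405-34652461, plus strand). Of these, 23 were matched between the peak sets by an overlap of at least 50% of their width, so that the BGI set had 1 peak of its own (+121.8 kb) and the Illumina set 1 (-1.0 kb). Peaks are named by the distance of their centre from the Sox2 start, with a plus sign for downstream, and each was 502 bp wide. Peaks between +100 and +120 kb were counted as the distal control region.

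The study asked what a change of sequencing instrument does to Omni-ATAC-seq, an assay in which the Tn5 transposase inserts adapters into open DNA. Mouse embryonic fibroblasts (MEFs) were cells sorted for the surface protein THY1, and mouse embryonic stem cells (mESCs) were sorted as THY1-, SSEA1+ and EPCAM+, all from a C57/Bl6 background and with no treatment. Libraries 1, 2 and 4 came from MEFs and libraries 1, 3 and 5 from mESCs, described as biological replicates, and each of the 6 was run on both instruments, a DNBSEQ-G400 of BGI and a HiSeqX10 of Illumina. The 12 samples therefore form 4 groups of 3, in which the BGI and Illumina samples of a library are technical repeats.

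SOX2 is a transcription factor with a high mobility group DNA-binding domain, which binds with OCT4 (encoded by Pou5f1) to composite sites in the enhancers of pluripotency genes and is needed to keep mESCs undifferentiated. Short enhancers on either side of the gene, known as SRR1 and SRR2, and a distant cluster of enhancers far downstream, called the Sox2 control region, have been described as regulators of the gene in mESCs. The gene lies within an intron of the long noncoding transcript Sox2ot and is also used in neural progenitors, where other enhancers drive it. Fibroblasts do not use Sox2 for their identity, and it is among the factors added to them in reprogramming to pluripotency.

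The reference sequences of 6 sites are given here because the results turn on them: the promoter, the site just downstream of the gene, the site that was more accessible in MEFs, and the 3 distal peaks with the highest mESC signal. Letters are GRCm38, plus strand, 5′ to 3′, over the central 300 bases of each BGI peak; the promoter sequence ends before the RefSeq transcript start, which lies 410 bases before the GENCODE start. Capitals mark matches to the motifs described further on (SOX, SOX-POU, ESRRB, KLF, GC box and AP-1 motifs).
Sox2 promoter -0.5 kb (chr3:34649756-34649994): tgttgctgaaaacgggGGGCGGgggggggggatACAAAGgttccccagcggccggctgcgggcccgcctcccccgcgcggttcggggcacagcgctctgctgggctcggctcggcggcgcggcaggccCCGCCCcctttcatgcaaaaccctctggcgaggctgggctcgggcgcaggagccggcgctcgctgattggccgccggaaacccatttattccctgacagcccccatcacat
Near downstream +3.6 kb (chr3:34653882-34654181): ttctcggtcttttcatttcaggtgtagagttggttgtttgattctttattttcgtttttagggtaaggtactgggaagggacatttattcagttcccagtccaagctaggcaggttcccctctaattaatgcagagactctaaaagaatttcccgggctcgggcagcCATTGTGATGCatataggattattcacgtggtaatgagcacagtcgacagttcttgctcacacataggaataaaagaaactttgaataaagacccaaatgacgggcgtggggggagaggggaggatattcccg
MEF-accessible +93.4 kb (chr3:34743638-34743937): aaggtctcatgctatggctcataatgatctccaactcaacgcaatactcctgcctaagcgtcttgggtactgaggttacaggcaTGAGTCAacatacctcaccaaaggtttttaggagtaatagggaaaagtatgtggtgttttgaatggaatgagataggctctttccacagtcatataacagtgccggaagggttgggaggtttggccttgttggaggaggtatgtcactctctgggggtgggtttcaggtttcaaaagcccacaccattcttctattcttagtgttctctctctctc
Distal +107.6 kb (chr3:34757886-34758185): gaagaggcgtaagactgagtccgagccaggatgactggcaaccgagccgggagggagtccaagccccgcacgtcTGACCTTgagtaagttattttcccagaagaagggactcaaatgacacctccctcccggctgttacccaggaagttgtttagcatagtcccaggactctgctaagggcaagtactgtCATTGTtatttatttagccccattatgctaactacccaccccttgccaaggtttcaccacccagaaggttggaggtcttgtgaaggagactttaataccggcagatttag
Distal +109.9 kb (chr3:34760150-34760449): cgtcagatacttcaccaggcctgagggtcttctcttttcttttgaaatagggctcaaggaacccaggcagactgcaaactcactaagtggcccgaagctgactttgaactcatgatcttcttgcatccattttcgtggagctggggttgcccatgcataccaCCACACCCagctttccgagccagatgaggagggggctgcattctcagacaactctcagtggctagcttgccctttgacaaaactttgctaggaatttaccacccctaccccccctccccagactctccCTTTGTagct
Distal +110.9 kb (chr3:34761180-34761479): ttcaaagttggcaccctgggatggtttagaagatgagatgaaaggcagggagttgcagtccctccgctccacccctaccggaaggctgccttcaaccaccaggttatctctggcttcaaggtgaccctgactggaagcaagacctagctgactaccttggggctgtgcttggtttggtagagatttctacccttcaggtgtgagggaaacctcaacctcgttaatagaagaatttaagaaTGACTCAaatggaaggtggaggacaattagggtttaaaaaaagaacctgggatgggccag

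Depth, taken as reads counted in the peak set of the same platform, was 20.1 to 21.7 M reads in MEF and 15.9 to 16.9 M in mESC samples on BGI, and 20.1 to 21.4 and 16.0 to 17.0 M on Illumina. Levels are given as CPM, the count of a peak for each M reads in peaks, and a count of 3 amounted to 0.138 to 0.189 CPM on BGI. The cell labels were checked at the most accessible peak within 1 kb of a start of each marker gene. Of 7 mESC markers, 6 were more accessible in mESCs on both platforms, and the exception was Esrrb, an orphan nuclear receptor gene, at 9.33 ± 1.10 CPM in MEFs and 9.35 ± 1.47 in mESCs (SD, n = 3, BGI). Of 7 MEF markers, 5 were less accessible in mESCs, among them Thy1 at 35.0 ± 4.50 against 11.1 ± 1.57 CPM (SD, n = 3, BGI), while Snai2 (24.1 ± 0.678 and 25.3 ± 0.860) and Pdgfra (24.7 ± 1.69 and 27.3 ± 3.51) were not called. Such calls are common, with 40.9% of all BGI peaks called higher and 43.2% lower in mESCs. These profiles are from bulk cells, so that fewer cells with an open site and less opening per cell cannot be told apart.

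Across the whole window, mESCs had more reads than MEFs on both instruments. On BGI the 24 peaks together held 65.8, 72.3 and 66.5 CPM in MEFs 1, 2 and 4 and 342.4, 349.9 and 344.0 CPM in mESCs 1, 3 and 5. On Illumina they held 62.3, 71.1 and 66.4 CPM in MEFs and 352.8, 362.9 and 339.5 CPM in mESCs. The groups did not overlap, and the ratio of means was 5.07 on BGI and 5.29 on Illumina. These sums are a description with no test, since most of the peaks were counted through mESCs alone, as set out next.

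Peak by peak, 23 of 24 were more accessible in mESCs and 1 was less accessible, on BGI and again on Illumina (edgeR quasi-likelihood test, Benjamini-Hochberg over all peaks). These counts are a description, because a site was counted only if its peak recurred in the samples of at least one cell type: by an overlap of at least 50%, 20 of the 24 BGI and 19 of the 24 Illumina peaks lay in the reproducible list of mESCs alone, 1 and 2 in that of MEFs alone and 3 and 3 in both. A peak of the mESC list alone entered through the cells in which it is high, which largely fixed its direction, also in the medians and sums over the window. Where an adjusted p is given for such a peak, it is part of the description. Among all peaks, 40.9% were called higher in mESCs and 43.2% lower on BGI, and 42.1% and 42.4% on Illumina. Every mESC sample was above every MEF sample at the same 23 peaks, which held for 42.9% of all BGI and 43.7% of all Illumina peaks. The median log2 fold change in the window was 2.66 on BGI and 2.39 on Illumina, beside -0.08 and -0.03 over all peaks tested. With library sizes set to the depth to which the reads were down-sampled, the median over all peaks moved by 0.14 on BGI and 0.13 on Illumina, and no call in the window changed.

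**Figure D1:**
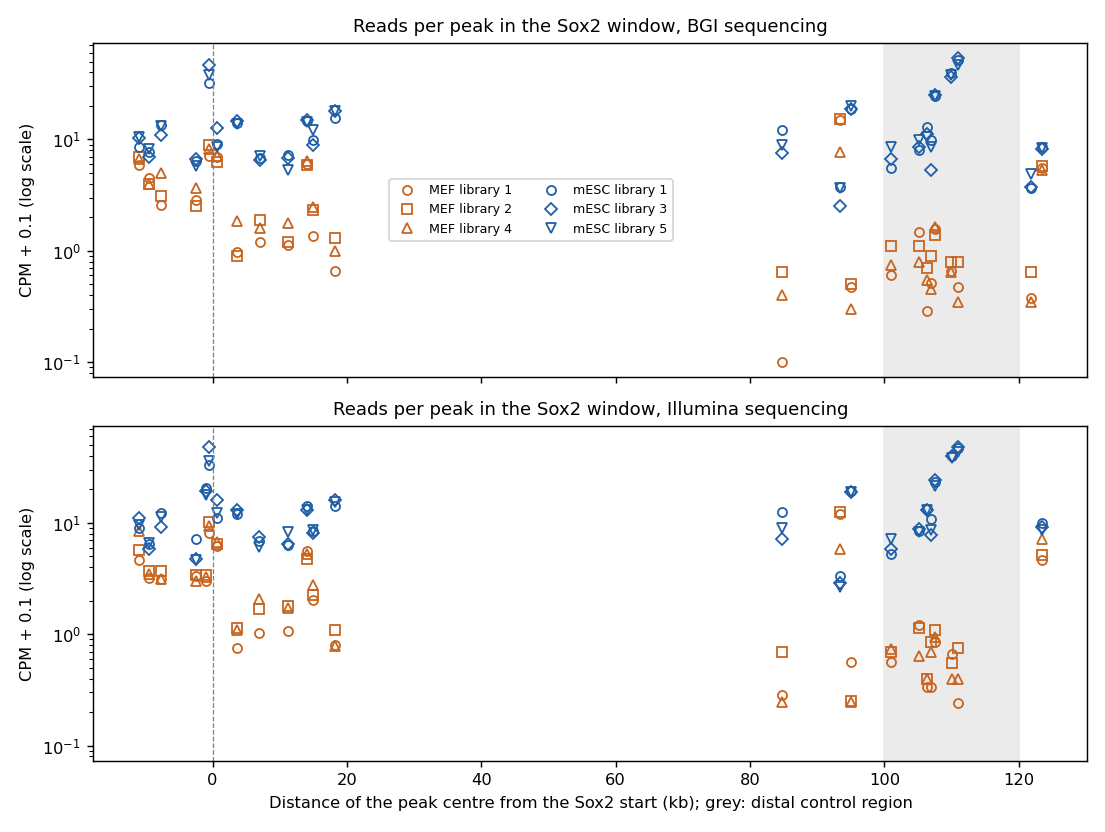
CPM plus 0.1 (log scale) of every window peak in each library against the distance in kb of its centre from the Sox2 start, for BGI (top) and Illumina (bottom); orange symbols are MEFs, blue symbols mESCs, and the grey band is the distal control region. The blue symbols lie above the orange ones at all peaks but +93.4 kb, and between +18.3 and +84.7 kb there is no counted peak; MEF 1 has no read at +84.7 kb on BGI.

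The distance between the cell types was not uniform along the locus. Between -11.0 and -2.5 kb the log2 fold changes on BGI were 0.54 to 1.77, at the promoter 0.52 and 2.21, from +3.6 to +18.3 kb 1.21 to 4.22, and in the distal control region 3.0 to 6.77. In MEFs, with the +93.4 kb peak apart, the BGI means were highest at the promoter. The 3 far upstream peaks had MEF means of 3.47 to 6.38 CPM and the 2 promoter peaks 6.70 and 7.99 CPM, whereas the 7 distal peaks had 0.410 to 1.44 CPM. The mESC means of the distal peaks ran from 6.81 to 50.7 CPM, a range that takes in the promoter peak at 38.7 CPM. The large fold changes of the distal region therefore went with a near absence of MEF reads, and those of the promoter with an appreciable MEF signal.

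**Figure D2:**
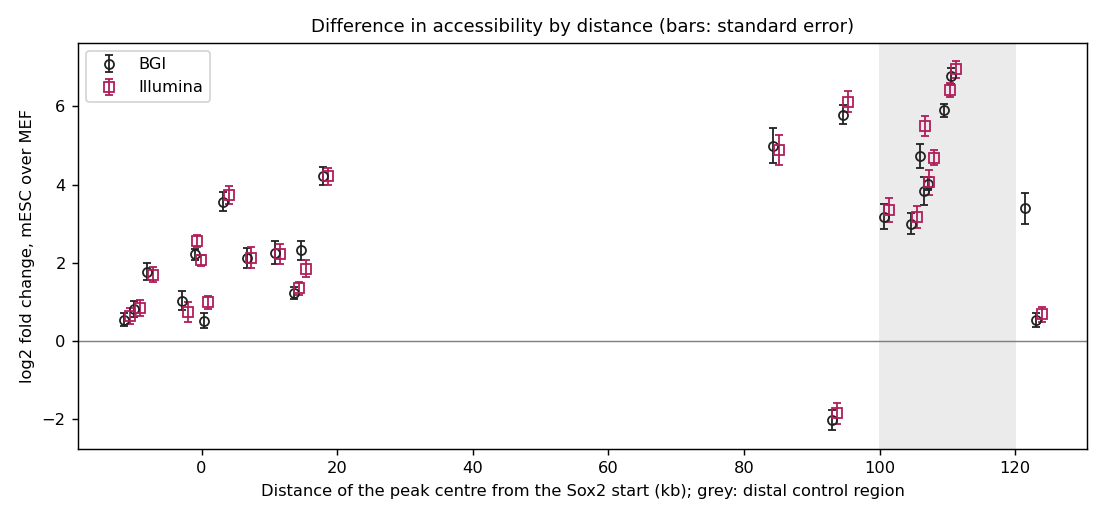
Fitted log2 fold change of mESCs over MEFs with its standard error for each window peak, by distance in kb from the Sox2 start, on BGI (circles) and Illumina (squares); the grey band is the distal control region. The highest values are at +110.9 kb (6.77 and 6.95), and +93.4 kb is the only peak below 0 (-2.03 and -1.86).

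The Sox2 promoter peak (-0.5 kb, chr3:34649655-34650156, in an intron of Sox2ot and overlapping the RefSeq start) was open in both cell types. On BGI it had 7.02, 8.85 and 8.12 CPM in MEFs 1, 2 and 4 and 31.9, 46.7 and 37.5 CPM in mESCs 1, 3 and 5. On Illumina it had 7.98, 10.04 and 9.21 CPM in MEFs and 33.1, 48.0 and 35.9 CPM in mESCs. The cell types were well separated, and library mESC 3 was the highest on both instruments. The log2 fold change was 2.21 ± 0.15 (SE) on BGI and 2.06 ± 0.14 on Illumina (edgeR, adjusted p = 2.49e-10 and 3.76e-10). On BGI, 78.0% of all peaks had a lower log2 fold change, and 96.1% had a lower mean CPM in mESCs.

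The other promoter-class peak, +0.7 kb on BGI (chr3:34650821-34651322), lies in the Sox2 exon. It had 6.92, 6.21 and 6.97 CPM in MEFs and 8.95, 12.7 and 8.45 CPM in mESCs, so that the groups were close and mESC 3 stood above the other two mESC libraries. The log2 fold change was 0.52 ± 0.19 (edgeR, adjusted p = 0.0185). Without mESC 3 it was 0.34 with an adjusted p of 0.124, and without MEF 2 it was 0.47 with an adjusted p of 0.0551, so this call rests on those libraries. The matched Illumina peak at +0.6 kb rose by 0.98 ± 0.17 on the log2 scale (edgeR, adjusted p = 4.36e-05), from 6.16, 6.41 and 6.70 CPM in MEFs to 10.9, 16.1 and 12.2 CPM in mESCs. On the mESC peak set, which counts both platforms in the same interval, BGI and Illumina gave 10.1 ± 2.28 and 12.3 ± 2.47 CPM there (SD, n = 3).

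The distal control region held the strongest mESC signal of the window. Its 7 peaks lay in intergenic sequence over 10.5 kb. All 7 were in the list of reproducible mESC peaks of their platform and none in the MEF list of either, so they were counted through mESCs alone, and their direction is no separate result. Their size is given as a description: all 7 were called higher in mESCs on both platforms, with a median log2 fold change of 4.02 on BGI and 4.69 on Illumina.

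The peak at +110.9 kb (chr3:34761079-34761580) was the most accessible. On BGI it had 0.369, 0.696 and 0.249 CPM in MEFs 1, 2 and 4 and 52.0, 53.9 and 46.2 CPM in mESCs 1, 3 and 5. On Illumina it had 0.140, 0.646 and 0.295 CPM in MEFs and 46.7, 48.1 and 43.4 CPM in mESCs. MEF values came from few reads, and every mESC value lay far above them. The log2 fold change was 6.77 ± 0.20 on BGI and 6.95 ± 0.21 on Illumina (edgeR), and the latter became 7.61 without MEF 2. By fold change this peak ranked 33 of 91354 on BGI and 74 of 87027 on Illumina.

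Its neighbour, with a centre 1030 bp nearer to the gene (+109.9 kb, chr3:34760049-34760550), showed the same separation at a slightly lower level. It had 0.554, 0.696 and 0.548 CPM in MEFs and 39.5, 36.4 and 37.6 CPM in mESCs on BGI, a log2 fold change of 5.90 ± 0.17 (edgeR). Its Illumina match had 0.560, 0.447 and 0.295 CPM in MEFs and 39.6, 40.0 and 38.3 CPM in mESCs, a log2 fold change of 6.43 ± 0.18. The mESC libraries differed little here, and their mean on BGI (37.9 ± 1.57 CPM, SD, n = 3) was close to that of the promoter peak (38.7 ± 7.45 CPM), where the libraries were more spread.

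Next in level, +107.6 kb (chr3:34757785-34758286) was the distal peak with the highest MEF mean on BGI. On BGI it had 1.48, 1.29 and 1.54 CPM in MEFs and 24.5, 24.8 and 24.6 CPM in mESCs, and on Illumina 0.746, 0.994 and 0.837 CPM against 23.0, 24.4 and 21.5 CPM. MEF values were higher on BGI in each of the 3 libraries, and mESC values were tightly grouped. The log2 fold change was 4.02 ± 0.17 on BGI and 4.69 ± 0.19 on Illumina (edgeR).

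The remaining 4 distal peaks were lower in mESCs. On BGI, +106.3 kb (chr3:34756482-34756983) had 0.185, 0.596 and 0.448 CPM in MEFs and 12.9, 11.1 and 10.4 CPM in mESCs, a log2 fold change of 4.73 ± 0.31. At +106.9 kb (chr3:34757048-34757549) the values were 0.416, 0.795 and 0.349 CPM in MEFs and 9.84, 5.20 and 8.51 CPM in mESCs, a log2 fold change of 3.83 ± 0.36. Library mESC 3 was lowest at that site on both platforms, in contrast to its place at the promoter. At +105.1 kb (chr3:34755241-34755742) MEFs had 1.39, 0.994 and 0.697 CPM and mESCs 7.94, 8.40 and 9.69 CPM, and at +101.0 kb (chr3:34751116-34751617) MEFs had 0.508, 0.994 and 0.647 CPM and mESCs 5.42, 6.56 and 8.45 CPM. Their log2 fold changes were 3.0 ± 0.27 and 3.18 ± 0.32. On Illumina the 4 peaks had MEF means of 0.276 to 0.901 CPM and mESC means of 5.97 to 13.1 CPM, with log2 fold changes of 3.17 to 5.50, and no sample of a group reached the other group.

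**Figure D3:**
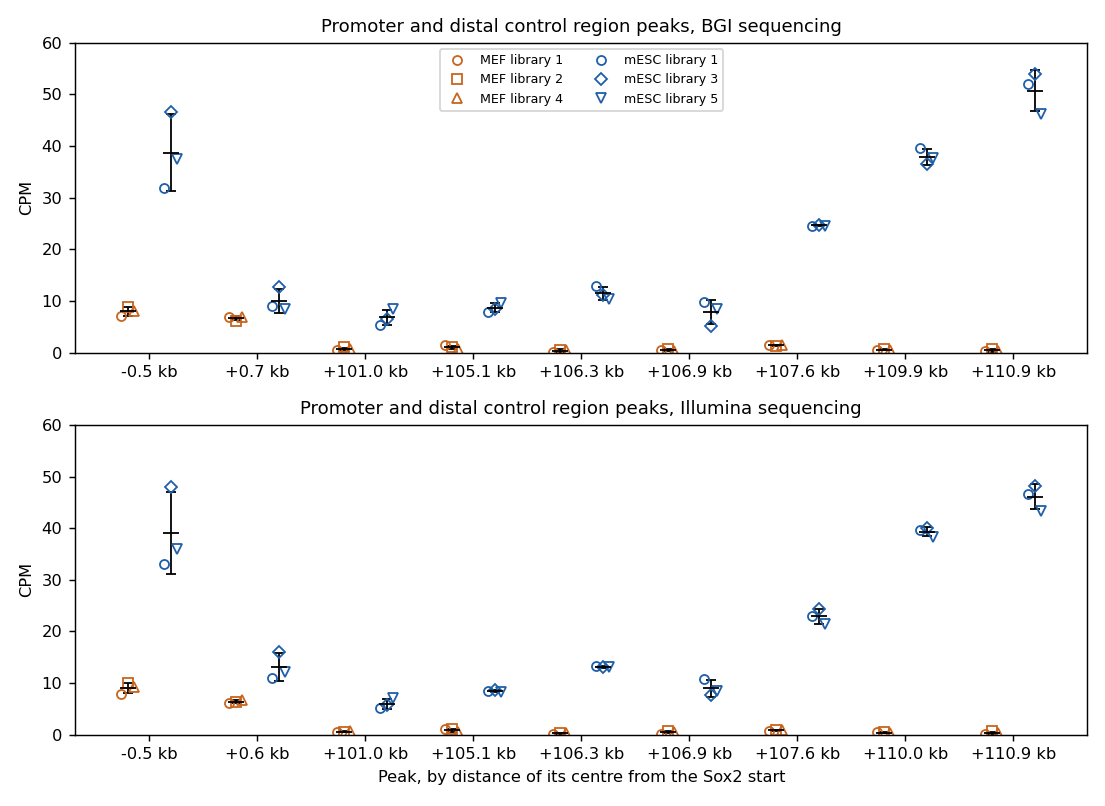
CPM of the 2 promoter-class and 7 distal control region peaks in each library, with the mean and SD of each group of 3 in black, on BGI (top) and Illumina (bottom). The mESC symbols rise to between 46.2 and 53.9 CPM at +110.9 kb on BGI, the MEF symbols of the distal peaks stay at or below 1.54 CPM, and the promoter shows the widest mESC spread.

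Set together, the distal peaks had 4.89, 6.06 and 4.48 CPM in MEFs and 152.1, 146.4 and 145.5 CPM in mESCs on BGI, and the promoter peaks 13.9, 15.1 and 15.1 CPM and 40.9, 59.3 and 46.0 CPM. The ratio of the group means was 28.8 for the distal region and 3.32 for the promoter (37.0 and 3.36 on Illumina). In mESCs the coefficient of variation between libraries was 2.42% for the distal sum and 19.6% for the promoter sum on BGI, and 2.91% and 20.4% on Illumina. The promoter spread came with mESC 3 above the other libraries. Single distal peaks were not all as even as their sum, with 7.85 ± 2.39 CPM at +106.9 kb and 6.81 ± 1.53 at +101.0 kb (SD, n = 3, mESCs, BGI).

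As a share of all window reads, the distal region held 7.43%, 8.39% and 6.74% in MEFs and 44.4%, 41.8% and 42.3% in mESCs on BGI. On Illumina the shares were 5.62%, 6.71% and 5.27% in MEFs and 41.7%, 40.7% and 41.3% in mESCs. The 95% Wilson intervals, which cover counting error only, ran over all samples from 4.20% to 9.92% in MEFs and from 39.5% to 45.7% in mESCs, with 1335 to 1455 window reads in a MEF and 5431 to 6155 in an mESC sample. The means were 35.3 percentage points apart on both platforms, given as a description with no test, since all 7 distal peaks and most of the peaks in the total were counted through mESCs alone. The size depends on the bounds of the region: it was 21.3 points on BGI and 22.8 on Illumina for 100 to 110 kb, and 18.2 and 20.3 for 90 to 130 kb, which takes in the +93.4 kb peak. The promoter share was 21.6% ± 0.995 in MEFs and 14.1% ± 2.59 in mESCs (SD, n = 3, BGI), although its CPM was higher in mESCs. Shares sum to 100%, so the larger rise of the distal sum lowers the others.

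**Figure D4:**
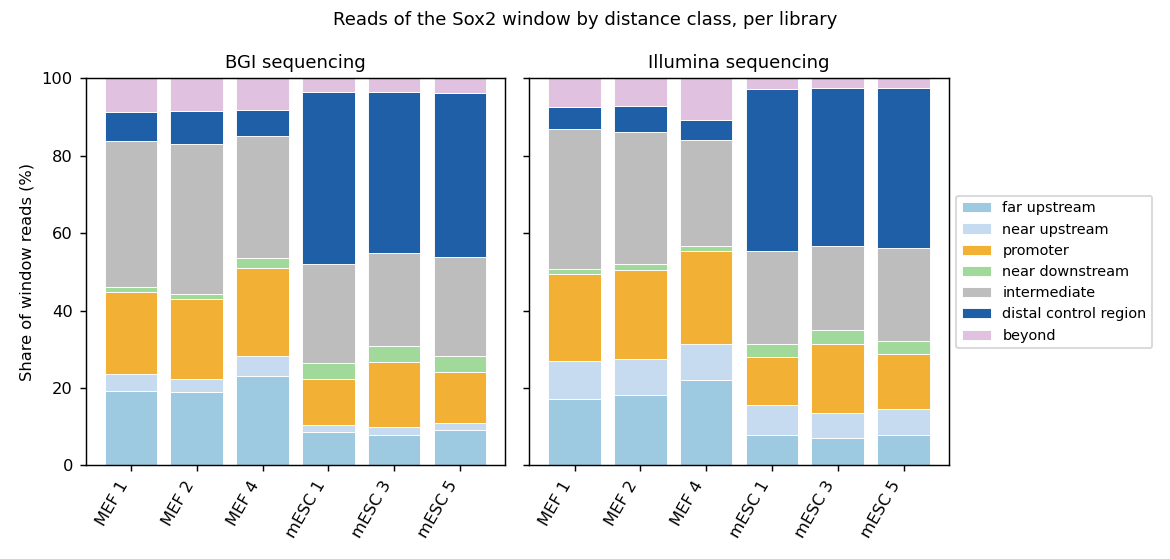
Share (%) of the reads of all window peaks that fell in each distance class, 1 bar for each library, on BGI (left) and Illumina (right). The dark blue part, the distal control region, takes 5.27% to 8.39% in the 6 MEF bars and 40.7% to 44.4% in the 6 mESC bars, and the orange part, the promoter class, is smaller in the mESC bars.

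Just downstream of the gene the ratio of mESC to MEF means, 12.4 on BGI, lay between those of the promoter and the distal sums, and far upstream it was lower than both, at 2.13. The near downstream peak at +3.6 kb (chr3:34653781-34654282, intron of Sox2ot), which lies near the described place of the SRR2 enhancer, had 0.877, 0.795 and 1.74 CPM in MEFs and 13.9, 14.6 and 13.7 CPM in mESCs on BGI. Its log2 fold change was 3.56 ± 0.25 on BGI and 3.74 ± 0.23 on Illumina (edgeR), above that of either promoter peak. It lay in the mESC list alone on both platforms, so its direction is no separate result. No MEF sample had a called summit in it, and all mESC samples did. The near upstream peak at -2.5 kb (chr3:34647689-34648190) had 2.77, 2.44 and 3.54 CPM in MEFs and 6.31, 6.62 and 5.72 CPM in mESCs, a log2 fold change of 1.03 ± 0.23. Its Illumina match at -2.4 kb rose by 0.74 on the log2 scale and lost its call without mESC 1 (adjusted p = 0.0937). The Illumina set alone held a peak at -1.0 kb (chr3:34649132-34649633), with 2.89, 3.33 and 3.20 CPM in MEFs and 20.6, 19.1 and 17.7 CPM in mESCs and a log2 fold change of 2.56 ± 0.16.

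The 3 far upstream peaks had log2 fold changes below the window median on both platforms. At -11.0 kb (chr3:34639156-34639657), the highest of them in MEFs, the values were 5.82, 6.81 and 6.52 CPM in MEFs and 8.45, 10.2 and 10.5 CPM in mESCs, a log2 fold change of 0.54 ± 0.17 (adjusted p = 0.00832). On Illumina its call was lost without mESC 3 (adjusted p = 0.0758). At -7.7 kb (chr3:34642497-34642998), the highest of them in mESCs, the values were 2.49, 2.98 and 4.93 CPM in MEFs and 13.3, 10.8 and 13.0 CPM in mESCs, a log2 fold change of 1.77 ± 0.22. Among all BGI peaks, 61.7% and 74.2% had a lower log2 fold change than these.

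Between +5 and +100 kb there were 8 peaks, and 7 of them were higher in mESCs on both platforms. The strongest in mESCs was +95.0 kb (chr3:34745131-34745632, intergenic), with 0.369, 0.398 and 0.199 CPM in MEFs and 18.7, 18.6 and 19.9 CPM in mESCs on BGI. Its log2 fold change was 5.79 ± 0.24 on BGI and 6.12 ± 0.27 on Illumina (edgeR), and became 6.91 on Illumina without MEF 1. It was surpassed in the window only by the +110.9 and +109.9 kb peaks. This peak too lay in the mESC list alone, so its direction is no separate result. The peak at +84.7 kb (chr3:34734873-34735374) was similar, with 0, 0.547 and 0.299 CPM in MEFs and 12.0, 7.51 and 8.88 CPM in mESCs, a log2 fold change of 5.0 ± 0.45, which became 5.91 without MEF 2 and 4.44 without MEF 1. The absence of reads in MEF 1 on BGI allows up to 0.138 CPM, and the same library had 0.187 CPM there on Illumina. Library mESC 1 was the highest at this peak on both platforms. Within the Sox2ot body, +18.3 kb rose from a mean of 0.881 to 17.1 CPM, while the other peaks from +7.1 to +15.0 kb had log2 fold changes of 1.21 to 2.32.

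The single peak that was less accessible in mESCs was +93.4 kb (chr3:34743537-34744038, intergenic), whose centre is 1594 bp from that of +95.0 kb. On BGI it had 14.7, 15.1 and 7.57 CPM in MEFs 1, 2 and 4 and 3.66, 2.42 and 3.54 CPM in mESCs 1, 3 and 5. On Illumina it had 12.0, 12.4 and 5.71 CPM in MEFs and 3.25, 2.77 and 2.54 CPM in mESCs. MEF 4 was the lowest MEF library on both instruments, yet it stayed above every mESC sample. The log2 fold change was -2.03 ± 0.26 on BGI and -1.86 ± 0.27 on Illumina (edgeR). This peak lay in the MEF list alone on both platforms, so it was counted through MEFs and its direction is no separate result. Its MEF mean of 12.5 ± 4.25 CPM (SD, n = 3, BGI) was the highest of the window, beside 7.99 ± 0.921 CPM at the promoter. This order held in MEFs 1 and 2 and not in MEF 4, where the promoter had 8.12 CPM on BGI and 9.21 on Illumina.

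Beyond the distal control region there were 2 peaks on BGI. At +123.5 kb (chr3:34773666-34774167, in an intron of the long noncoding gene Gm38509) both cell types were accessible, with 5.40, 5.62 and 5.23 CPM in MEFs and 8.39, 8.16 and 8.26 CPM in mESCs, a log2 fold change of 0.54 ± 0.18 (edgeR, adjusted p = 0.00988). The BGI-only peak at +121.8 kb (chr3:34771978-34772479, overlapping an exon of Gm38509) had 0.277, 0.547 and 0.249 CPM in MEFs and 3.53, 3.67 and 4.78 CPM in mESCs. Its log2 fold change was 3.39 ± 0.40, with the lowest mESC level among the window peaks that rose.

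The calls made in each sample alone gave another view of the locus. Counting summits whose -log10 p reached 10, the window held 8, 9 and 12 in MEFs 1, 2 and 4 on BGI, against 49, 42 and 46 in mESCs 1, 3 and 5. The Illumina samples held 9, 9 and 10 (MEFs) against 47, 53 and 50 (mESCs). The groups were far apart on both instruments, with means of 9.67 ± 2.08 and 45.7 ± 3.51 on BGI and 9.33 ± 0.577 and 50 ± 3.0 on Illumina (SD, n = 3; two-sided exact permutation test, p = 0.1 each). Over the whole genome, summits of any strength numbered 216566 to 230117 in the MEF and 229198 to 276268 in the mESC samples, of which 16 to 23 and 84 to 100 lay in the window. In the distal control region no MEF sample had a summit of that strength on either platform, and mESC samples had 11 to 16. At +110.9 kb the mESC summits had a -log10 p of 207.2 to 316.8 and were enriched 44.4 to 61.9 times over background on BGI, and 194.2 to 287.0 and 42.6 to 57.6 times on Illumina. The only MEF summit in a distal peak was that of MEF 4 on BGI at +107.6 kb, with a -log10 p of 5.18. At the promoter, MEF summits had a -log10 p of 29.1 to 42.1 and mESC summits 186.2 to 340.3 on BGI.

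In mESCs on BGI the called intervals joined 6 of the 7 counted distal peaks to a neighbour. The exception was +101.0 kb, which stood in an interval of its own (1264 and 1232 bp in mESCs 1 and 3). In mESC 5 no summit fell inside this peak, although its CPM there, 8.45, was above those of mESCs 1 and 3 (5.42 and 6.56). The peaks from +105.1 to +107.6 kb shared intervals of 3662 to 3768 bp, and +109.9 and +110.9 kb shared intervals of 3048 to 3267 bp. Among distal intervals whose -log10 p reached 10, the median width was 3048, 3072 and 2076 bp in mESCs 1, 3 and 5 on BGI and 3321, 2193 and 2030 bp on Illumina. The means, 2732 ± 568 and 2514 ± 703 bp (SD, n = 3), differed by less than the spread between libraries (two-sided exact permutation test, p = 0.9). This test leaves out that the platforms share libraries. Within libraries the BGI median was lower in mESC 1 and higher in mESCs 3 and 5. The difference of 217.7 bp turned to -113.0 bp without mESC 3 and to -271.8 bp when a -log10 p of 5 was enough.

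For the comparison of instruments, the 3 BGI and 3 Illumina samples of a cell type were compared on a peak set that joins both platforms, first as groups, without regard to which samples share a library. There were 24 window peaks in the mESC set and 5 in the MEF set. No window peak was called different between BGI and Illumina, in mESCs or in MEFs, by edgeR, and none of the 24 or 5 had an unadjusted p under 0.05. DESeq2 called none of the 14 mESC and 2 MEF peaks to which it gave an adjusted p. Over all peaks the edgeR calls were 3.23% (2164) in mESCs and 4.06% (2514) in MEFs. These totals moved with the libraries kept: they were 1, 1373 and 0 without mESC 1, 3 or 5, and 0, 0 and 6132 without MEF 1, 2 or 4. Each omission also leaves fewer samples per group, and the part of this in the shifts was not tested. In mESCs the log2 differences of BGI minus Illumina ran from -0.33 at +0.7 kb to 0.27 at +15.0 kb, with 13 of 24 above 0, and their standard errors were as large as 0.24.

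With the library as a block, which removes the difference between libraries that both instruments share, 2 mESC peaks were called beside 21.3% of all peaks. These were +0.7 kb, lower on BGI by a log2 difference of -0.34 ± 0.09 (edgeR, adjusted p = 0.00366) and in 3 of 3 libraries, and +15.0 kb, higher on BGI by 0.27 ± 0.10 (adjusted p = 0.0486) and also in 3 of 3. In MEFs the block called +93.4 kb, with 12.9 ± 4.45 CPM on BGI and 10.1 ± 3.70 on Illumina (SD, n = 3), by 0.33 ± 0.09 (adjusted p = 0.00421, 3 of 3 libraries), beside 29.2% of all peaks. The GC content of +0.7 kb was 67.9%, the highest of the 24 mESC peaks, and that of +15.0 kb and +93.4 kb was 50.3% and 48.6%, near the window median of 48.8% on BGI. Spearman's rho of GC content with the log2 ratio of BGI over Illumina was -0.43 across the 24 mESC peaks and -0.20 across the 5 MEF peaks, which share their libraries, and the part of GC content in the calls was not tested. With an offset for GC content added to the block, the log2 difference was -0.06 at +0.7 kb (edgeR, adjusted p = 0.787), 0.20 at +15.0 kb (0.254) and 0.20 at +93.4 kb (0.162), so that these 3 peaks were not called. Calls were then made at +106.3 kb (-0.30, adjusted p = 0.0166) and +109.9 kb (-0.16, adjusted p = 0.0196) in mESCs, beside 8.6% of all peaks, and at +0.6 kb (0.37, adjusted p = 0.0273) in MEFs, beside 12.7%. For mESCs, 2 of 24 is close to the share over all peaks. The largest of these differences was 0.37 on the log2 scale, while the differences between cell types at the distal peaks were 3.0 to 6.95.

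**Figure D5:**
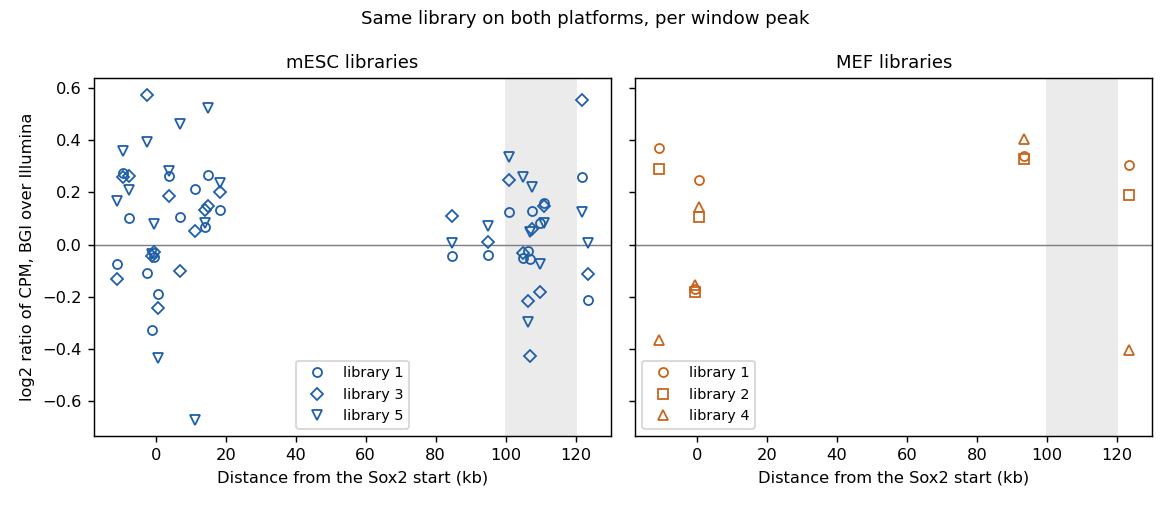
Log2 ratio of CPM on BGI over Illumina for each library (symbols) at each window peak of the joint mESC set (left, 24 peaks) and the joint MEF set (right, 5 peaks), by distance in kb from the Sox2 start; the grey band is the distal control region. The ratios scatter on both sides of 0, while at +93.4 kb the 3 MEF libraries lie together above 0 and at +0.7 kb the 3 mESC libraries lie below 0.

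The cell type effect itself was compared between instruments by the interaction of cell type with platform on the BGI peak set. None of the 24 window peaks was called by edgeR, which called 0% of all peaks (2386 had an unadjusted p under 0.05), and DESeq2 also called none. At an unadjusted p under 0.05 edgeR singled out +107.6 kb, where the log2 fold change was lower on BGI (difference -0.62, unadjusted p = 0.0159, adjusted p = 1.0). With the library block none was called in the window either, with 4 at an unadjusted p under 0.05, beside 0.386% of all peaks called. The 23 matched peaks had the same direction on both platforms in 23 of 23 cases. Their fitted log2 fold changes differed by a median of 0.17, and by 0.77 at most, at +106.3 kb. All 7 distal peaks had the higher fold change on Illumina, where the MEF mean was lower at 6 of them, and this order was not called at any of them.

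Differences between libraries of the same cell type were shared by the instruments at several sites. In mESCs, relative to the group mean, library 3 was above by 0.27 on BGI and 0.29 on Illumina (log2) at -0.5 kb, and by 0.33 and 0.29 at +0.7 kb. At +84.7 kb the same library was below by -0.34 and -0.44, and library 1 above by 0.34 and 0.40. At +110.9 kb the deviations were small, from -0.13 to 0.08. Over the 24 mESC peaks the sign of the deviation was the same on both platforms at 18 for library 1, 16 for library 3 and 17 for library 5.

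The sequences of the sites were searched for short motifs in the central 500 bases on both strands, a count of letters and not of bound factors. The SOX motif CATTGT was found in 7 of the 24 BGI peaks and CTTTGT in 9, and among all 91272 peaks with sequence 20.4% and 33.5% held them. In the distal region CATTGT was found in 2 of 7 and CTTTGT in 4 of 7, including the 2 strongest peaks. The SOX-POU composite core TTGTNATGC, which 1.77% of all peaks hold, was found in 1 window peak, +3.6 kb, at bases 170 to 178 of the printed sequence, overlapping CATTGT at bases 168 to 173. The octamer ATGCAAAT (3.2% of all peaks) and the TEAD motif GGAATGT (11.3%) were found in none of the 24.

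Other motifs were spread over the locus. AAGGTCA, read by the nuclear receptor ESRRB and held by 9.56% of all peaks, was found in 2 window peaks, both distal (+106.3 and +107.6 kb), and in the printed sequence of the latter it stands on the minus strand at bases 75 to 81. The KLF motif CCACACCC (7.02% of all peaks) was found in 3, of which 2 were distal. The GC box GGGCGG (30.7%) was found in 4, among them the promoter with 2 matches, and the STAT motif TTCCNGGAA (2.08%) in 2, at +3.6 and +95.0 kb. The AP-1 motif TGANTCA (25.2%) was found in 5, at +84.7, +93.4, +101.0, +105.1 and +110.9 kb, so that it was present both in the site higher in MEFs and in the distal site highest in mESCs. The RUNX motif TGTGGTT (10.8%) was found in 4, +93.4 kb among them, and the CTCF consensus (4.42%) in 1, -2.5 kb.

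Among all genes, the promoters with a pattern most like that of Sox2 over the 6 BGI samples were those of Nup62cl, Ak7, Fut9, Ralgps2 and Cxadr, by Euclidean distance of log2 CPM among 14039 promoter peaks. Nup62cl (chrX:140062474-140062975) was nearest at a distance of 0.45, with 7.39 CPM in MEFs and 43.1 in mESCs, and Ak7, an adenylate kinase gene, followed at 0.56 with 8.08 and 45.3 CPM. Fut9, at 0.58, encodes a fucosyltransferase that makes the SSEA1 epitope on which the mESCs were sorted. For the +110.9 kb peak, the nearest of 61551 peaks away from starts lay closest to Zfhx2 (chr14:55085792-55086293, distance 0.87, with 0.424 CPM in MEFs and 37.1 in mESCs), followed by sites near Rybp, Ect2, Gm10139 and Ift52 at 0.96 to 1.07.

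The promoters of other genes of the pluripotency network were compared in the same fits. Of 14 genes, 9 were more accessible in mESCs, 3 were less accessible and 2 were not called, on BGI and on Illumina, beside 40.9% of all peaks called higher and 43.2% called lower on BGI. Those that rose included Zfp42 (1.21 ± 0.267 to 53.1 ± 4.19 CPM), a zinc finger gene used as a marker of naive cells, and Nanog, a homeobox factor (1.01 ± 0.510 to 23.3 ± 3.98 CPM, SD, n = 3, BGI). Their log2 fold changes of 5.38 ± 0.16 and 4.46 ± 0.25 were above that of the Sox2 promoter, whereas Pou5f1, at 2.14 ± 0.15, was near it. Klf4 (-0.27, adjusted p = 0.0493), Tbx3 (-0.52, adjusted p = 1.43e-05) and Stat3 (-0.34, adjusted p = 0.00435), transcription factor genes that were accessible in both cell types, were lower in mESCs. Klf2 had 68.0 ± 4.31 and 78.8 ± 6.11 CPM (adjusted p = 0.127).

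All 5 genes listed as targets of SOX2 with OCT4 were more accessible in mESCs on both platforms, beside 40.9% of all BGI and 42.1% of all Illumina peaks, with a median log2 fold change of 3.62 on BGI and 3.13 on Illumina. Tdgf1, a co-receptor for Nodal, had 1.20 ± 0.799 CPM in MEFs and 41.0 ± 4.68 in mESCs, and Fgf4, a growth factor made by mESCs, had 2.32 ± 1.23 and 29.7 ± 0.880 CPM (SD, n = 3, BGI). The 4 group B Sox genes, relatives of Sox2 that act mainly in the nervous system, were also higher, from Sox21 at 1.15 ± 0.15 to Sox14 at 2.68 ± 0.28 on the log2 scale (BGI).

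Markers of other lineages gave mixed results, to be read against the same 40.9% and 43.2% of all BGI peaks called higher and lower. Of 5 neural progenitor markers, 4 were higher in mESCs on BGI and 3 on Illumina, where the most accessible peak at Pax6 was another one and was lower (18.9 ± 1.34 against 14.3 ± 1.60 CPM, SD, n = 3), and Nes was not called on either. Their means were 4.47 to 17.8 CPM in MEFs and 16.4 to 45 CPM in mESCs on BGI, with none at 0. Of 4 primitive endoderm markers 3 were higher and Gata6 was lower. Of 3 trophoblast markers, Eomes was higher, Elf5 was not called, with 5.88 ± 0.921 and 6.39 ± 1.16 CPM (SD, n = 3, BGI), and Cdx2 had no counted peak within 1 kb. Sox1 belongs to both the neural and the group B list. Whether cells of these lineages contribute to the mESC signal at Sox2 was not tested.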

How the data were processed

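Per the labels, 12 samples were analysed, with groups taken from their titles. The authors shortened Illumina reads to 100 bp, aligned to GRCm38, discarded mitochondrial reads and duplicates, down-sampled MEF samples to 60 M and mESC samples to 45 M reads, and called peaks per sample with MACS2. The deposited tables hold raw read counts per peak and sample for 4 peak sets. The deposited peak calls give each summit its -log10 p-value and its fold enrichment as a ratio over the genome-wide background, and a score that the authors' MACS2 wrote from the p-value, which was not used. The reproducible peak lists of the authors hold positions only. Columns without a platform name were taken as Illumina. In each library the ratio of the columns followed the ratio of fold enrichment in the peak calls (Spearman rho 0.756 to 0.799 across peaks).

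Cell types and platforms were compared with the two-sided quasi-likelihood test of edgeR 4.0.16 (R 4.3.3) with TMM factors and the default filter on low counts, which removed 0 peaks, on all peaks of a set, with Benjamini-Hochberg adjusted p under 0.05 as a call. CPM used the reads in the peak set, and DESeq2 1.42.0 was an alternative. The standard error of a log2 fold change is its size over the root of the F statistic. Summits and widths were compared by exact permutation, and window sums and shares were described only. Intervals and floors cover counting error only. Library numbers pair the platforms, since the same libraries were sequenced: deviations from the group mean correlated at 0.514 to 0.837 for the same number and -0.676 to 0.298 for others. The fits were tested on simulated data with changes of 1 on the log2 scale, and 100% (cell types, BGI, 91354 peaks), 100% (platforms, mESCs, 67063 peaks) and 88% (interaction, 91354 peaks) of these were recovered. False calls were 1.96%, 4.31% and 5.88% of those made. Only peaks outside the lowest signal were changed, and both cell types had the same mean. The near absence of MEF reads at the distal peaks was therefore not simulated, and recovery there is not known. In the interaction fit the standard error at +106.9 kb was 0.581.

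Named with full values were all promoter and distal peaks and, in each distance class, the peaks with the highest mESC and MEF means. Sequences shown by that rule were the promoter and the 2 strongest distal peaks, and +3.6, +93.4 and +107.6 kb were added after their values were seen. The promoter sequence is shorter than 300 bases because it stops before the RefSeq start. The members, gene lists, markers and motifs were chosen with earlier results of these data known. Gene annotation was GENCODE on GRCm38.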

Additional observations from a re-analysis of the deposited data

Results flagged for a closer look

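Called summits appeared in a stretch of the window in which the count tables have no peak, from 20 to 80 kb downstream of the Sox2 start. On BGI the calls per sample held 1 to 3 summits there in MEFs and 13 to 15 in mESCs, with a mean of 14 ± 1.0 in mESCs (SD, n = 3). On Illumina they held 1 in each MEF sample and 13 to 17 in mESCs, with a mean of 15.7 ± 2.31 in mESCs (SD, n = 3). These were drawn attention to because the report counts no peak there and the level is above that of MEFs, so the difference is described without a test. Most were weak: when a -log10 p of 10 was required, MEF samples had 0 or 1 and mESC samples 2 to 4 on BGI and 1 to 3 on Illumina. The strongest had a -log10 p of 23.2, in mESC 5 on BGI.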

How the results depend on the processing

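Under RLE factors, DESeq2, no filter on low counts and library sizes at the down-sampled depth, 23 window peaks were called higher in mESCs and 1 lower on both platforms. On the peak set of the other platform the 23 matched peaks each kept direction and call, and the unmatched one had no value. Leaving out each library gave 22 to 23 higher, and a required log2 fold change of 1 gave 19 on BGI and 18 on Illumina. Of 633 values of single peaks under alternatives, 614 kept their direction and call, 13 lost the call, 6 gained it and none turned direction. Some of these could not differ: the filter removed 0 peaks, so leaving it out repeated the main fit. The required log2 fold change of 1 used the main fit too and could not turn a direction. The difference in distal share moved with the definition of the region: on BGI it was 21.3 percentage points for 100 to 110 kb, 18.2 for 90 to 130 kb, 40.3 without the promoter peaks and 33.8 on the other peak set, and on Illumina 22.8, 20.3, 40.7 and 37.4. The difference in summits was 59.0 on BGI and 63.7 on Illumina at a -log10 p of at least 5, 67.3 and 78.7 for all summits, and 18.3 and 16.0 for distinct intervals. The difference in interval width turned to -271.8 bp at a -log10 p of at least 5 and to -113.0 bp without mESC 3 (463.0 bp at most, without mESC 1).

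The library block called 2 window peaks in mESCs and 1 in MEFs, and the block with a GC offset also 2 and 1, where no peak was called without it. Over all peaks, the calls between platforms rose from 2164 to 14304 in mESCs with the block and 5769 with the GC offset, and from 2514 to 18075 and 7852 in MEFs, where DESeq2 called 5914. The interaction went from 0 to 353 calls with the block, none in the window, while adding the GC offset left 0, and the block changed no other call. Leaving out a library gave 0 (without mESC 5) to 1373 calls in mESCs, with 1 without mESC 1, and 0 (without MEF 1 or MEF 2) to 6132 (without MEF 4) in MEFs. The cause of these shifts was not tested. Few reads in MEFs limit the distal fold changes, and 3 libraries per group limit every exact permutation p to 0.1.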
